A study of Drosophila melanogaster with 3 samples.

Results

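The regions described here are the ChIP-seq peaks of the CG10274-eGFP fusion protein whose summits lay next to the centromeres of Drosophila melanogaster. They were chosen by position alone: the summit had to lie above 22 Mb on arm 2L, above 22.9 Mb on 3L, below 4.2 Mb on 3R or above 22.6 Mb on X, in the dm6 build. Of the 30000 rows of the list called on the pooled replicates, 93 met this rule, and 24147 lay on the rest of the same 4 arms. Of the 93, 1 was also among the 2988 peaks that the authors kept after comparing replicates by IDR, a method that keeps peaks ranked alike in replicates. That compares with 10.0% of the rows in the rest of the arms and 9.96% of the whole pooled list. That shorter list is called the combined list here, and its peaks are the 2988 highest-scoring rows of the pooled list.

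Chromatin came from whole embryos of 0 to 24 h, of both sexes together, from a transgenic line, CG10274-GFP, that stably expresses CG10274 with GFP at its C-terminus, and was precipitated with an antibody against GFP. The labels number 3 biological replicates of this 1 group and name 1 line, so every comparison is between regions within the same libraries. The labels give no promoter for the transgene, and whole embryos mix all cell types and stages of that day. The control experiment to which the labels point was not analysed here. Each replicate had its own list of 30000 entries, described as peaks and background, so an entry of low rank is not by itself binding. Nothing in the files gives reads per library, so the depth is unknown.

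Chromatin next to fly centromeres is heterochromatin for most of its length: it carries methylated histone H3 lysine 9 and HP1, is rich in transposon remnants and satellite repeats, and holds few genes. Many of those genes are essential and are transcribed within heterochromatin, often with long introns filled with repeats. Short reads from repeated sequence cannot be placed at 1 locus, so the part of these regions where a peak can be called depends on unique sequence. CG10274 encodes a zinc-finger protein of the ZAD family, whose members bind DNA. No chromatin mark was measured in these samples, so the windows are called pericentromeric by their position.

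The reference sequence of the windows had the features that go with that position. They held 11.73 Mb of sequence that is not N, against 95.31 Mb in the rest of the 4 arms. Words of 36 bases that occur once in the genome began at 42.4% of window positions, against 94.5% in the rest. Soft-masked repeats covered 40.2% of the windows and 17.5% of the rest. Annotated transcription start sites (TSSs) numbered 290 in the windows and 18240 in the rest, or 24.7 and 191.4 per Mb. The median protein-coding gene was 6.46 kb long in the windows and 2.16 kb in the rest.

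The sequences at 8 summits show what lay under the rows that the results turn on: the combined peak, the 2 next rows by score, the highest row of each other arm, and the rows at the starts of 2 ribosomal protein genes over 500 kb inside a window. Each is the plus strand, 5′ to 3′, of the RefSeq Release 6 assembly (dm6) within 50 bases of the summit. Names are those of the nearest protein-coding gene, or of 2 genes that share the start (stnA and stnB) or the intron (fog and CG42346). Capitals mark the word ATATTTTT, which is the reverse complement of the word AAAAATAT learned from combined peaks elsewhere, and CGATA, the core that the insulator protein BEAF-32 is known to bind.
stnA and stnB, chrX:23004920-23005020: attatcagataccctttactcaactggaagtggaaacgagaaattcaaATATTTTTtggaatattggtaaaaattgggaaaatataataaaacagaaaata
FucTC, chrX:23010752-23010852: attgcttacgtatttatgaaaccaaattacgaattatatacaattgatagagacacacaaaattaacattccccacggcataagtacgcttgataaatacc
fog and CG42346, chrX:22833689-22833789: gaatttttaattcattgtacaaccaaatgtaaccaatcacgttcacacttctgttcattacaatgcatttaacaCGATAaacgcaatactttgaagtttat
CG42748, chr2L:22144287-22144387: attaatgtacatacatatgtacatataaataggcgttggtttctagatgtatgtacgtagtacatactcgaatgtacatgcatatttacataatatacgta
CG12768, chr3L:22909906-22910006: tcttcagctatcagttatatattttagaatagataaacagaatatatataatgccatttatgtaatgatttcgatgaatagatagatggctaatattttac
CG12581, chr3R:4173308-4173408: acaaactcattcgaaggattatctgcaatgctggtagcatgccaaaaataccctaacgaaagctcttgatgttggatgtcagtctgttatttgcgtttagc
RpL5, chr2L:22536709-22536809: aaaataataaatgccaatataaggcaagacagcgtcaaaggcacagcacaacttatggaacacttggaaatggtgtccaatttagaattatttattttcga
RpL15, chr3L:27267141-27267241: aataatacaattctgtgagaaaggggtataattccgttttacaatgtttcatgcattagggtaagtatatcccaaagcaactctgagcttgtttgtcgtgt

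The pooled list was sparse in the windows. It had 93 rows there, or 7.93 per Mb, against 24147 rows or 253.4 per Mb in the rest of the arms, a ratio of 0.0313. The combined list had 0.0853 peaks per Mb in the windows and 25.4 per Mb in the rest. By arm, the pooled rows numbered 28 on X, 33 on 3L, 17 on 2L and 15 on 3R. Per Mb these were 29.8 in the X window against 201.2 in the rest of X, and 11.2 in the 2L window against 263.6 in the rest of 2L. They were 6.47 in the 3L window against 287.2 in the rest of 3L, and 3.59 in the 3R window against 259.7 in the rest of 3R. The X window, the shortest with 0.941 Mb, was thus the least sparse.

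The replicates' own lists were also less dense in the windows than outside, but by very different factors. Replicate 1 had 61 entries in the windows and 23726 in the rest, or 5.20 and 248.9 per Mb. Replicate 2 had 279 in the windows and 24104 in the rest, or 23.8 and 252.9 per Mb. Replicate 3 had 984 in the windows and 23607 in the rest, or 83.9 and 247.7 per Mb. Densities outside the windows were thus close in the 3 replicates, and those inside were far apart. The ratios of window to rest were 0.0209, 0.0941 and 0.339, with a mean of 0.151 ± 0.166 (SD, n = 3), so the spread between replicates was as large as the mean ratio. On the log2 scale the ratio averaged −3.52 ± 2.01 (SD, n = 3), lower in 3 of 3 replicates (exact two-sided sign-flip permutation test, p = 0.25, the smallest that 3 replicates allow). This test cannot reach 0.05 in any comparison below.

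Each arm had the same order of replicates. Ratios of window to rest were 0.0840, 0.255 and 0.507 on X in replicates 1, 2 and 3. On 2L they were 0.0634, 0.156 and 0.394. On 3L they were 0.00491, 0.0882 and 0.372, and on 3R 0.0120, 0.0391 and 0.205. All 12 ratios were under 1, and X had the highest in each replicate.

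The scale on which density was taken changed the picture for replicate 3. Per Mb of unique 36-base words, the entries of replicates 1, 2 and 3 numbered 12.3, 56.1 and 198 in the windows, against 263.5, 267.7 and 262.2 in the rest. Per annotated TSS they were 0.210, 0.962 and 3.39 in the windows, against 1.3, 1.32 and 1.29 in the rest. Replicate 3 therefore had 2.62 times as many entries per TSS in the windows as outside, whereas replicates 1 and 2 had 0.162 and 0.728 times as many. The mean log2 ratio per TSS was −0.57, lower in 2 of 3 replicates (exact two-sided sign-flip permutation test, p = 0.75). Both scales were chosen after the counts were seen. Whether unique sequence or gene number accounts for the sparse windows was not tested.

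**Figure D1:**
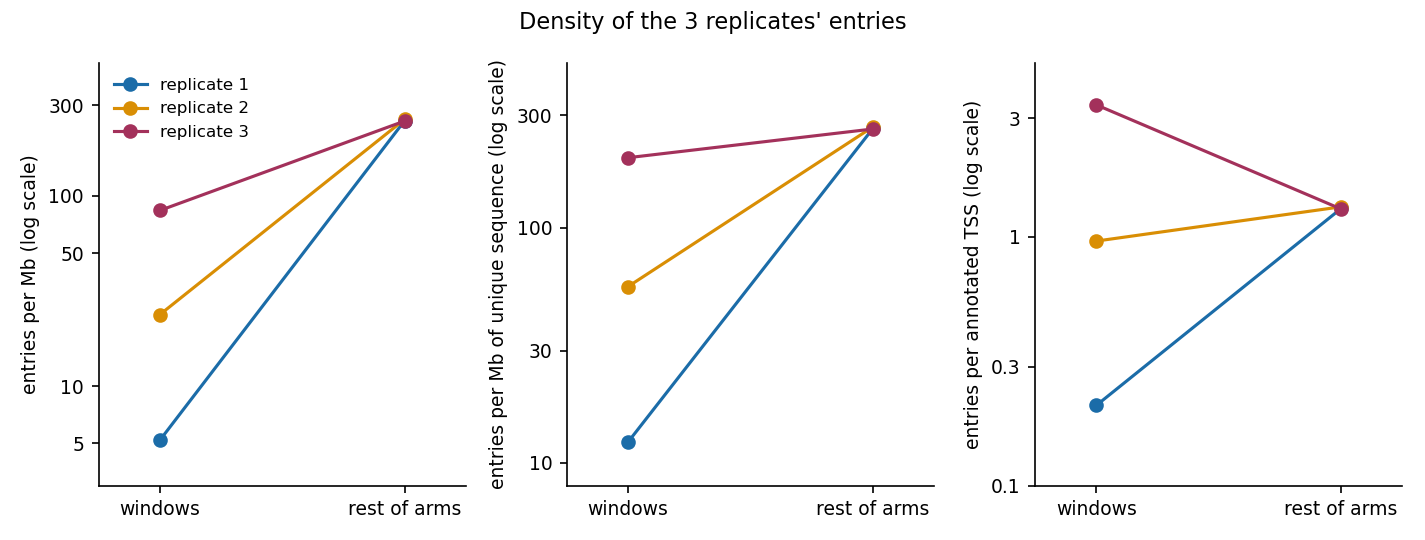
Density of each replicate's entries in the pericentromeric windows (left in each panel) and in the rest of arms 2L, 3L, 3R and X (right), on log axes, per Mb that is not N, per Mb of unique 36-base words and per annotated TSS. Lines join the values of 1 replicate: the 3 meet outside the windows and spread inside them, where replicate 3 is above its outside value only per TSS (3.39 against 1.29).

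Among strong entries the windows were close to empty. The top 2988 entries of each replicate, as many as the combined list holds, were compared. Those of replicate 1 included 2 in the windows, those of replicate 2 included 0 and those of replicate 3 18, against 2383, 2446 and 2437 in the rest of the arms. The ratios of window to rest density were 0.00682, 0 and 0.0600, with a mean of 0.0223 ± 0.0329 (SD, n = 3), below 1 in 3 of 3 replicates (exact two-sided sign-flip permutation test on the ratio minus 1, p = 0.25). The authors' q-values were seldom low there: q was under 0.05 for 6 of the 93 pooled window rows, or 6.45%, against 21.9% of rows in the rest. In replicate 3, 3 of 984 window entries had q under 0.05, or 0.305%, against 6.13% of its entries in the rest. Replicate 2's count of 0 top entries among its 279 in the windows allows a share of up to 1.08%, for counting error only. Its window entries with q under 0.05 were 8 of 279, or 2.87%, against 14.5% in the rest. In replicate 1 they were 18 of 61, or 29.5%, against 42.7% in the rest.

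Most of the pooled window rows lay near the boundary. The first 500 kb of the 4 windows held 75 of the 93 rows, or 37.6 per Mb, and the 500 kb after them held 5, or 2.58 per Mb. The remaining 7.79 Mb held 13 rows, or 1.67 per Mb, of which 11 were on 3L and 2 on 3R. The 1000 kb just outside the boundaries had 186 rows per Mb, also under the 253.4 of the rest as a whole. By arm, that zone held 183 rows on 2L, 228 on 3L and 300 on 3R, but 21 on X. All 28 rows of the X window lay within its first 500 kb, so on X the rows did not drop at the boundary. By zone, TSSs thinned out too, with 175.8 per Mb outside the boundaries, then 70.6, 33.0 and 10.9 per Mb in the 3 zones inside. The share of unique words was 73.9% outside, then 68.1%, 40.6% and 36.2%. Within the outside zone rows and TSSs parted, furthest in 1 bin of 200 kb. That bin, from 400 to 600 kb out, held 213 of the zone's 692 TSSs, with 55.7% unique words and 97.5 rows per Mb. The other bins of the zone held 83 to 176 TSSs each, with 168.8 to 261.2 rows per Mb. The outside value of 175.8 TSSs per Mb includes the bin with 213. Whether those 213 come from 1 cluster of repeated genes was not tested. The part of TSSs and unique words in the number of rows was not tested.

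The replicates parted most in the deep zones. Replicate 1 had all of its 61 window entries within the first 500 kb and none beyond. Replicate 2 had 139 entries in the first 500 kb, 36 in the next and 104 beyond. Replicate 3 had 296, 158 and 530 in the same zones. Over 500 kb in, the entries of replicate 2 numbered 140 and those of replicate 3 numbered 688. Of the 140, 53 or 37.9% overlapped an entry of replicate 3, whose entries covered 2.71% of that sequence. Of the 688, 54 or 7.85% overlapped an entry of replicate 2, whose entries covered 0.573% of it. The covered shares are not rates of overlap by chance, which would be higher, because 1 shared base was enough. Entries also lay mostly in unique sequence, with means of 96.0% in replicate 2 and 92.3% in replicate 3. Whether the overlap exceeded chance was not tested.

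**Figure D2:**
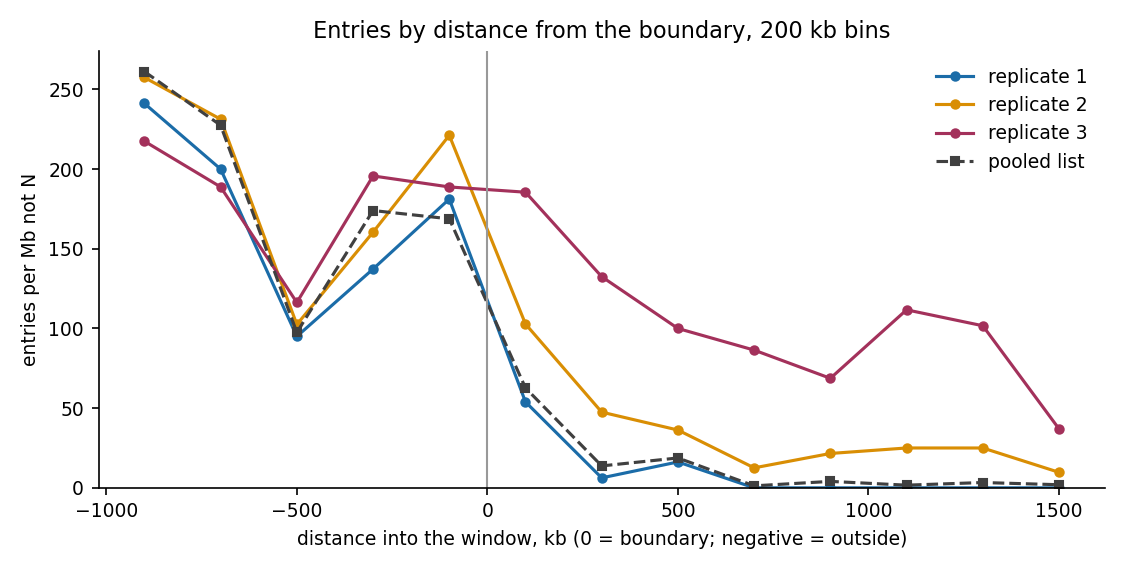
Entries per Mb that is not N in bins of 200 kb by distance into the window (x axis, kb; 0 is the boundary and negative values lie outside), summed over arms 2L, 3L, 3R and X, for the 3 replicates and the pooled list; the X and 2L windows end before the last bins. The pooled list and replicate 1 drop to near 0 within 600 kb of the boundary, while replicate 3 stays far above them. The sum does not show X alone, with 21 pooled rows in the 1000 kb outside and 28 in the first 500 kb inside.

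The 93 rows were narrow and ranked low. Each was 404 bp wide, like 28784 of the 30000 pooled rows, and overlapping rows merged to 88 separate stretches. Their pooled score, the authors' own scale with no fixed range, ran from 33.9 to 168 with a median of 45.0, against a median of 48.7 and a maximum of 22892.2 in the rest. The best rank was 2088, and 57 rows ranked below 15000 in the list of 30000. At each boundary the nearest row on either side was read. The row just inside had a score of 40.9 on 2L, 65.2 on 3L, 43.1 on 3R and 59.3 on X. The nearest row outside had 35.1 on 2L, 36.2 on 3L, 179.7 on 3R and 34.9 on X.

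The combined list had 1 of the 93 rows, or 1.08% (95% Wilson interval 0.190 to 5.84%), against 10.0% of the rows in the rest of the arms. It was a row of 404 bp at X 23004768 to 23005171, between genes, with its summit at 23004970, 322 bp upstream of the shared start of stnA and stnB. These 2 genes are read from a single dicistronic transcript of the stoned locus, which is needed for synaptic vesicle recycling. The pooled score was 168, and the lowest score in the combined list was 128.2. Overlapping entries had scores of 80.1, 35.3 and 42.7 and ranks of 2388, 3754 and 1616 in replicates 1, 2 and 3. It thus stood within the top 2988 in replicates 1 and 3 and below it in replicate 2. A second summit 200 bp further from the start, at 23005170, had a pooled score of 54.3 and was not in the combined list.

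Outside the boundaries, the nearest combined peak stood from 14.2 kb (3R) to 132.6 kb (2L) away. The 1000 kb just outside held 48 combined peaks among 732 pooled rows, also a lower share than the 10.0% of the rest as a whole. The highest-scoring row of the whole pooled list lay 21.1 kb outside the 3L window, with its summit at 22878895 and a score of 22892.2. It was 89 bp inside the start of Chro, which encodes Chromator, a chromodomain protein of polytene interbands. The next combined peak out from 3L was 36.2 kb from the boundary, 63 bp upstream of CG33169, with a score of 218. On 3R the nearest 2 were at 14.2 and 15.8 kb, by the start of CG14636, with scores of 179.7 and 184.5. On X they were 108.6 and 108.8 kb out, upstream of l(1)G0196, with scores of 147.7 and 187. On 2L they were 132.6 kb out, nearest CG11629, with a score of 318.8, and 205 kb out at CG31612, with a score of 579.9. Moving each boundary 200 kb away from the centromere brought the count to 10 combined of 228 rows, against 2416 of 24012 in the rest.

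**Figure D3:**
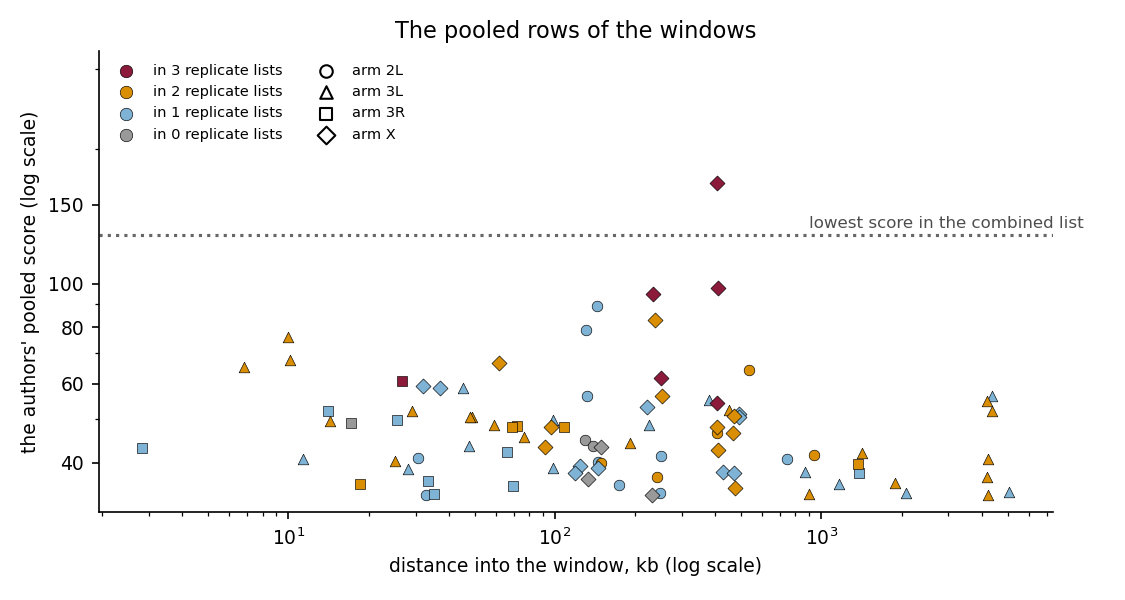
The 93 pooled rows of the windows, by distance into the window (x axis, kb, log scale) and the authors' pooled score (y axis, log scale), with marker shape for the arm and colour for the number of replicate lists with an overlapping entry. Only the stnA and stnB row, with a score of 168, lies above the lowest score in the combined list, 128.2 (dotted line).

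The 5 highest rows outside the combined list lay on X and 2L. At FucTC, which encodes a fucosyltransferase, a row with its summit at X 23010802 lay in the exon 501 bp from the protein-coding start. It was also 170 bp upstream of the start of the non-coding gene CR45010. Its pooled score was 97.8 and its ranks in replicates 1, 2 and 3 were 8606, 3573 and 9554. In an intron shared by fog and CG42346, a row at X 22833739 had a pooled score of 94.7 and ranks of 15611, 3134 and 13479. The fog gene encodes a secreted ligand that drives cell shape change in gastrulation. A further row at X 22837578, 1319 bp upstream of a fog start, had a score of 83 and ranks of 4279 in replicate 1 and 11291 in replicate 3, with no entry in replicate 2. On 2L, an intronic row of CG42748 at 22144337 scored 89.3, with rank 2941 in replicate 1 and no entry in replicates 2 and 3. A row 138 bp inside the start of CG42748, at 22131359, scored 78.8, again with an entry in replicate 1 alone, at rank 3209. Thus the 3 X rows had entries in 2 or 3 replicates, and the 2L rows in 1.

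The highest rows on 3L and 3R were lower still. On 3L the highest was at 22909956, 535 bp upstream of CG12768, with a pooled score of 76.3. It had no entry in replicate 1, and ranks of 16359 and 7709 in replicates 2 and 3. On 3R the highest was at 4173358, 1274 bp upstream of CG12581, with a score of 60.9 and ranks of 26787, 26041 and 5217 in replicates 1, 2 and 3. All 3 replicates thus had an entry there, 2 of them near the bottom of their lists.

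Of the 4 ribosomal protein genes in the windows, RpL5 and RpL15 lay over 500 kb inside and had a pooled row. RpL5, a protein of the large cytosolic subunit, had a row 536.8 kb into the 2L window with a pooled score of 64.4. Its summit lay in an exon of a longer RpL5 transcript, 72 bp upstream of another annotated start. It ranked 3162 in replicate 2 and 4846 in replicate 3, with no entry in replicate 1. RpL15 lay 4367 kb into the 3L window, with a row 64 bp upstream of its start that scored 52.0. It ranked 4564 in replicate 2 and 1929 in replicate 3, again with no entry in replicate 1. A further row 569 bp inside RpL15 scored 56.2 and had an entry in replicate 2 alone, at rank 4127. RpL10 and RpL21 had no pooled row within 500 bp. RpL10 had a replicate 1 entry 40 bp from its start at rank 4189, and RpL21 a replicate 2 entry 358 bp away. Of these 4 ribosomal protein genes, 2 had a pooled row and 0 a combined peak within 500 bp of a start, against 59 and 48 of the 63 elsewhere on the arms. With 4 genes, a count of 0 sets only a wide limit on the share.

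**Figure D4:**
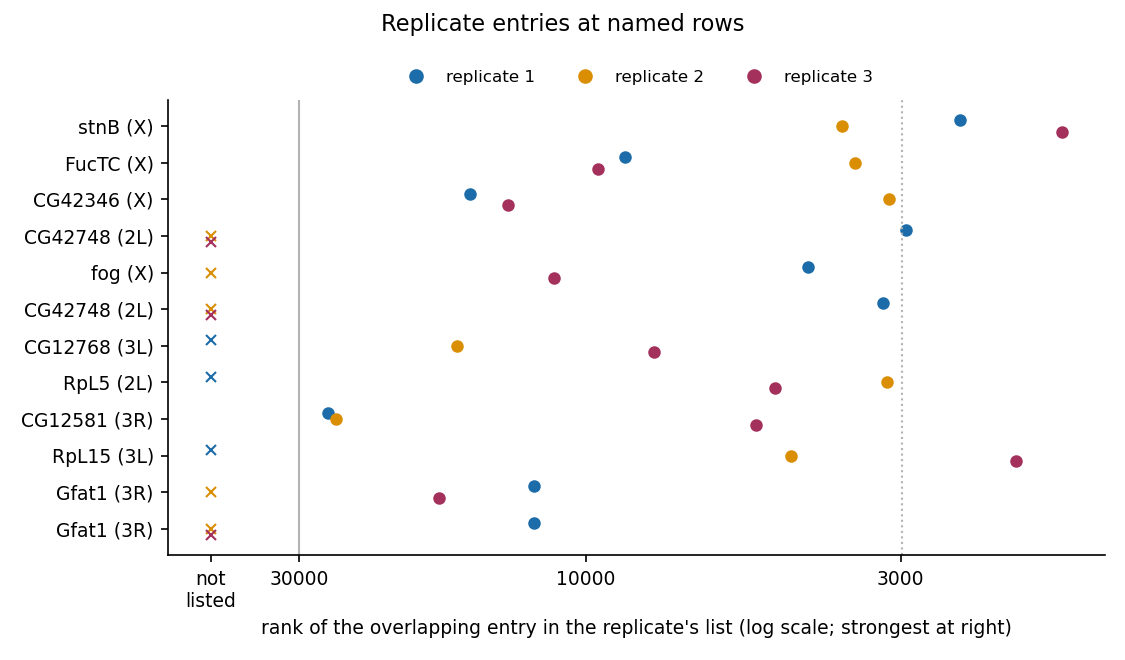
Rank of the overlapping entry in each replicate's list (x axis, log scale, strongest at right) for 12 named pooled rows of the windows, ordered from the highest pooled score at the top and labelled by nearest protein-coding gene and arm. Crosses at left mark replicates with no entry, the solid line the end of each list at 30000 and the dotted line rank 2988: RpL5 and RpL15 lack replicate 1, and both CG42748 rows lack replicates 2 and 3.

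Other rows over 1000 kb in had pooled scores from 33.9 to 54.9. On 3L they included a row 716 bp upstream of nvd, which encodes an oxygenase of ecdysone synthesis, with a pooled score of 42.0 and ranks of 25288 and 6774 in replicates 2 and 3. A row 136 bp upstream of ND-AGGG, a subunit of mitochondrial complex I, scored 34.2 and had an entry in replicate 3 alone, at rank 15039. At CG40228 a row 7 bp from the start scored 37.1 and a second, 893 bp in, scored 54.9. Both had entries in replicates 2 and 3. The 2 deep rows on 3R lay in an intron of Pzl, at 2821505 and 2817087, with scores of 39.8 and 38. None of these rows had an entry in replicate 1.

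Within the windows, a few genes held several rows each. CG42748 held 6 row summits in its body of 35 kb and fog 5 in 30.9 kb. CG42346 held 4 in 53.1 kb, all of them shared with fog, and Gfat1 4 in 11.4 kb. These counts were not scaled by gene length. The CG42748 rows at 22131359 and 22131558 overlapped each other and the same replicate 1 entry, of rank 3209. Gfat1, on 3R, encodes the first enzyme of the hexosamine pathway. Its rows at 4130989 and 4130385, 468 bp and 136 bp from starts, scored 48.1 and 35.5. Both overlapped the same replicate 1 entry, of rank 12197. These genes were chosen after their counts were seen.

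Support by all 3 replicates together was lower in the windows, and each replicate's own overlap differed. An entry of all 3 replicates overlapped 6 of the 93 rows, or 6.45% (95% Wilson interval 2.99 to 13.4%), against 20.1% of rows in the rest. The difference of −13.7 percentage points turned to 4.60 when replicate 1 was left out, with 34 of 93 window rows against 7718 of 24147 in the rest, and was −28.9 without replicate 3. The 6 were both stnA and stnB rows, FucTC, 2 rows in introns of fog and the highest row on 3R. Both stnA and stnB rows overlapped the same entry in each replicate, so 1 locus fills 2 of the 6. No replicate entry overlapped 6 rows, or 6.45% against 5.98% in the rest. An entry of replicate 1 overlapped 31 rows, or 33.3% against 62.8% in the rest. For replicate 2 these were 47 rows, or 50.5% against 62.6%. Replicate 3 went the other way, with 61 rows, or 65.6% against 46.3%. The most frequent combination was replicates 2 and 3 without replicate 1, in 28 rows, followed by replicate 3 alone in 20 and replicate 1 alone in 13. These combinations were not counted in the rest, so they are not read as particular to the windows. Entries of exactly 2 replicates overlapped 43.0% of window rows against 37.4% in the rest, and of exactly 1 replicate 44.1% against 36.5%.

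The replicates' own entries in the windows overlapped other lists to different extents. Of the window entries of replicate 3, 6.61% overlapped a pooled row, against 45.7% of its entries in the rest. For replicate 2 these shares were 16.5% in the windows and 60.9% in the rest, and for replicate 1 they were 49.2% and 70.3%. Only 1.42% of replicate 3's window entries overlapped an entry of replicate 1, against 24.4% in the rest. The windows held 984 entries of replicate 3 and 279 of replicate 2, but 61 of replicate 1 and 93 pooled rows. A long list can overlap a much shorter one in only a small share of its entries. In the rest the lists were of like length, so such shares cannot be compared between windows and rest. Seen from the shorter list, overlap with replicate 3 was closer in windows and rest. For replicate 2's entries it was 36.6% in the windows and 37.6% in the rest (difference −0.995 percentage points, 95% interval −6.46 to 4.84). For replicate 1's entries it was 23.0% and 27.8% (difference −4.87 percentage points, 95% interval −13.65 to 7.105). Overlap of replicate 1's entries with replicate 2 was lower in the windows, at 21.3% against 47.4% in the rest. In the 6 rows with all 3 replicates, scores relative to each replicate's median over such rows had medians of 0.620, 0.953 and 0.835 in the windows, against 1, 1 and 1.00 in the rest. The same stnA and stnB entries were counted for 2 of these 6 rows. The difference averaged −0.198 ± 0.169 (SD, n = 3), lower in 3 of 3 replicates (exact two-sided sign-flip permutation test, p = 0.25).

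Of the 18 top entries of replicate 3 in the windows, 8 or 44.4% overlapped a pooled row, against 94.3% of its 2437 top entries in the rest. An entry of replicate 2 overlapped 10 of the 18, or 55.6%, against 86.3% in the rest, and an entry of replicate 1 overlapped 1, or 5.56%, against 77.8%. The strongest, at 3L 26014101, 11 bp inside the start of l(3)80Fg, ranked 1569, had no pooled row, and ranked 27396 in replicate 2. Next were stnA and stnB, at rank 1616. At 2L 23368977, 23369859 and 23372619, 3 entries ranked 1653, 1934 and 2160. The nearest protein-coding gene was Tim23, and the first of them lay at −55399 bp relative to its start. That entry overlapped one ranked 4888 in replicate 2, and none of the 3 overlapped a pooled row. In all, 4 of the 18 lay within 500 bp of a TSS, or 22.2%, against 34.6% of replicate 3's top entries in the rest. Replicate 1's 2 top window entries were stnA and stnB, 340 bp upstream of the start, and the intronic row of CG42748.

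The share of pooled rows at gene starts was close in the windows and in the rest. A TSS was within 500 bp of 25 of the 93 summits, or 26.9%, against 25.4% of summits in the rest (difference 1.50 percentage points, 95% interval −6.48 to 11.3). Fewer were intronic, 35.5% against 49.6% in the rest, and more were intergenic, 39.8% against 27.4%. The replicates' entries differed again. In the windows 39.3% of replicate 1's entries lay within 500 bp of a TSS, against 32.9% in the rest. In replicate 2 these were 13.6% in the windows and 20.6% in the rest, and in replicate 3 5.69% and 13.9%. The median distance to a TSS was 705, 6344 and 20077 bp in the windows for replicates 1, 2 and 3, and 1161, 2185 and 3313 bp in the rest. For the top entries alone, the promoter share could be taken in replicates 1 and 3 only. It differed by 0.357 and −12.4 percentage points, and its direction was not settled (exact two-sided sign-flip permutation test, p = 1).

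Counted by gene, starts in the windows had an entry less often in replicate 1, replicate 2 and the pooled list, and more often in replicate 3. Of 114 protein-coding genes in the windows, 15 or 13.2% had a pooled row within 500 bp of a start, against 43.1% of 10899 genes in the rest. Combined peaks were at 2 window genes, stnA and stnB with their single start, or 1.75%, against 11.4% in the rest. In replicate 1 the share was 13.2% in the windows against 49.4% in the rest, and in replicate 2 21.1% against 37.1%. In replicate 3 it was 32.5% in the windows against 23.5% in the rest. Entries of all 3 replicates were at the starts of 4 genes, stnA, stnB, FucTC and CG17167. Entries of none were at 58, of replicate 3 alone at 21, of replicates 2 and 3 but not 1 at 11, and of replicate 1 alone at 10. These combinations were not counted for the 10899 genes in the rest, so none is read as particular to the windows. Replicate 1 alone had entries at Clamp, a zinc-finger gene known for its part in dosage compensation, and at nrm, which encodes an adhesion protein. Both were picked after their values were seen.

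**Figure D5:**
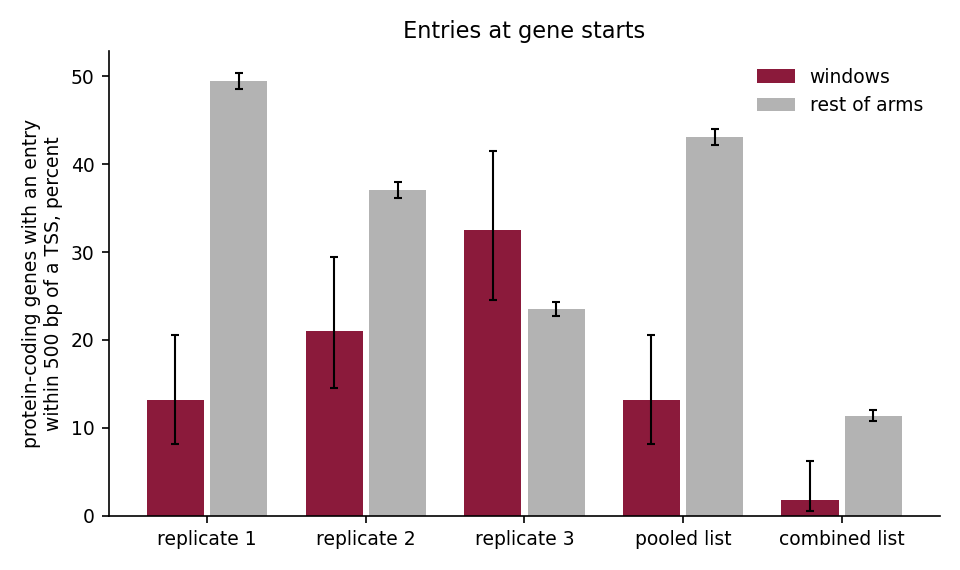
Share of protein-coding genes with an entry within 500 bp of a TSS (y axis, percent) in the windows (dark, 114 genes) and in the rest of the 4 arms (grey, 10899 genes), for each list. Bars are shares and error bars 95% Wilson intervals, which cover the counting of genes only. The window share is below the other except in replicate 3, with 32.5% in the windows against 23.5% in the rest.

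A list of 22 genes known from work on pericentromeric heterochromatin was also read. Of these, 21 lay in the windows, 2 of them matched by a synonym, and Mgstl lay outside. Of the 21, 5 had a pooled row within 500 bp of a start (stnA, stnB, RpL5, RpL15 and Gfat1) and 2 a combined peak (stnA and stnB), beside the 13.2% and 1.75% of all 114 window genes and the 43.1% and 11.4% of genes in the rest. By replicate, the shares of all window genes were 13.2%, 21.1% and 32.5%. Replicate 1 had entries at 5, which were stnA, stnB, Gfat1, fog and su(f), a gene for mRNA 3′ end processing. Replicate 2 had entries at 6, namely stnA, stnB, RpL5, RpL15, the helicase gene Dbp80 and the myosin gene Myo81F. Replicate 3 had entries at 8: stnA, stnB, RpL5, RpL15, Snap25, spok, Cht10 and Parp1. Snap25 encodes a SNARE of synaptic vesicle release, spok a cytochrome P450 of ecdysone synthesis, Cht10 a chitinase and Parp1 a poly-ADP-ribose polymerase. At lt, a gene of vesicle transport to the lysosome long studied for its need of heterochromatin, the nearest pooled row was 15462 bp from a start and lay in an exon, with a score of 41.6.

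The rows lay mainly where sequence is unique. All 36-base words within 100 bp of the summit were unique in 80 of the 93 rows, or 86.0%, against 99.1% of rows in the rest. The median share of unique words was 100% in both, and the means were 98.5% in the windows and 99.9% in the rest. Among replicate 3's window entries the mean was 93.9%, against 99.9% in the rest, so most of them also lay in unique sequence. GC content within 50 bp had medians of 40.6% in the windows and 42.6% in the rest.

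Short words around the summits gave little that was particular to these rows. The word AAAAATAT, read on both strands, had the largest difference in count, of all 8-base words, between the 50 bp around combined summits in the rest of the arms and their flanks. It was in 5.98% of them and in 2.66% of the flanks 500 bp away, and other words had larger ratios. It was within 50 bp of 5 of the 93 window summits, or 5.38% (95% Wilson interval 2.32 to 12%), against 3.37% of summits in the rest. Of tiles of the same length along the reference, 4.02% in the windows and 3.09% in the rest held it. The combined peak at stnA and stnB held it. The direction turned to −0.556 percentage points within 25 bp and −0.365 within 100 bp. CGATA was within 50 bp of 7.53% of window rows against 12.1% of rows in the rest, and in 12.6% of window tiles. GAGAG, which GAGA factor binds, was at 6.45% against 11.9%, and in 12% of window tiles. All words were read on both strands. The longer word TATCGATA, which contains CGATA and is bound by DREF, was at 1 of the 93, or 1.08%, against 0.505% in the rest. CAGGTAG, the word of Zelda, was at 1 of the 93 against 0.663% in the rest, the E-box CACGTG at 1 against 1.39%, and GGTCACAC, the core of promoter motif 1, at 0 against 0.435%. A tandem pair of AATAT, a satellite word, was at 0 of the 93 summits, against 0.249% of those in the rest. A tandem pair of AAGAG was also at 0, against 0.0414%, and one of AACAC at 0, against 0.0456%. A count of 0 of 93 allows a share of up to 3.97% (95% Wilson interval).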

How the data were processed

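Peak lists in the narrowPeak format on dm6 and dm3, for each of 3 biological replicates, for the replicates pooled and for the peaks kept by IDR, were used as deposited by the authors. Column 7, the authors' score, has no fixed range and was not scaled between lists, and column 9 is the deposited −log10 q-value with a ceiling. For the aligner and the peak caller, names and settings were not given in the sources used here. Per the file headers and descriptions deposited beside them, each list was derived from alignments and 1 further file taken to be a control. The lists hold no counts of reads, so depth is unknown, and intervals cover the counting of rows or genes only.

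A summit is column 2 plus column 10, printed 1-based. Rows were ranked by score, and any overlap of 1 bp or more counted as shared. Genes and TSSs came from the BDGP 6.54 annotation of Ensembl release 115, and sequence from RefSeq Release 6. Unique 36-base words were counted on both strands of the whole reference. Density was taken per Mb that is not N. Comparisons were between the windows and the rest of arms 2L, 3L, 3R and X within each replicate, with an exact sign-flip permutation test over 3 replicates, and with 95% Wilson and Newcombe intervals for pooled rows. As replicate 2 had 0 top entries in the windows, the top-entry ratio was tested as the ratio minus 1 in place of its log2. Nothing in the labels says that the replicates came from separate cages or collections, so their spread may be partly technical.

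The regions named were the combined rows, the highest row of each window, the 5 highest others, the 2 combined peaks nearest each boundary, and rows within 500 bp of the listed heterochromatin genes. The members and lists were chosen with earlier results of these data known. The density and word counts were tested on simulated data. Alternatives were other boundaries, overlaps, list lengths, word lengths and TSS distances, and each replicate left out. Python 3.11.15, numpy 2.4.6, scipy 1.17.1, pandas 2.3.3, numba 0.67.0 and matplotlib 3.10.9 were used.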

Additional observations from a re-analysis of the deposited data

Results flagged for a closer look

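The dm3 lists, which entered no comparison of the report, also had entries on the separate heterochromatin scaffolds of arms 2L, 3L, 3R and X of that build. The pooled dm3 list had 18 such entries, replicate 1 had 7, replicate 2 had 93 and replicate 3 had 449, while the combined dm3 list had 0. They were flagged because they lie in data outside the comparisons. The replicates stood in the same order as in the dm6 windows.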

How the results depend on the processing

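Of 48 alternatives over 8 results, 6 reversed the direction and 4 moved the value by more than its spread or interval, and the cause was not tested. The test over 3 replicates cannot reach 0.05 and the medians of unique words are at 100% on both sides, so that these kept their side says nothing about stability. The mean log2 entry density ratio stayed negative in every alternative run, from −4.50 without replicate 3 to −0.57 per TSS, and ranged from −4.50 to −2.49 when a replicate was left out. The promoter share difference of top entries, −6.01 percentage points, was 17.3 with boundaries 200 kb towards the centromere and 17.2 with them 200 kb away, and −12.4 to 0.357 with a replicate left out; it rests on few entries. The support difference, −13.7 points, was −6.30 with summits within 100 bp, and −28.9 to 4.60 with a replicate left out, positive without replicate 1. The difference in unique words, 0 by medians, was −1.41 points by means, an alternative chosen after seeing the data. The motif difference, 2.01 points, was −0.556 within 25 bp, −0.365 within 100 bp and 94.0 for combined peaks only, where the windows had 1. Densities per unique Mb and per TSS were also chosen after seeing the data. No paired analysis was possible because the series has 1 group, so no replicate block between groups could be fitted; windows and rest were already compared within each replicate. Depth is unknown, so rows missing from a list were not read as absence of binding.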

Other observations

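Genes other than protein-coding ones were also counted. Of 69 long non-coding and other ncRNA genes in the windows, 10 or 14.5% had a pooled row within 500 bp of a start, against 29.7% of 2604 in the rest of the arms. Replicates 1, 2 and 3 had entries at 13.0%, 24.6% and 23.2% of them, against 27.3%, 29.8% and 25.6% in the rest. Pseudogenes had a pooled row at 1 of 36 in the windows, or 2.78%, against 6.86% of 175 in the rest.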
